A study of Mus musculus with 8 samples.

Results

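The 40 genes described here encode plasma proteins of the complement and coagulation cascades. They were chosen by name, as components of those cascades, with earlier results of these data known. All 40 had at least 1 named probe on the array, with 51 probes in all, and they are 40 of 15867 genes that passed the filter on dim probes. RNA of whole liver from 8 mice was measured, 1 Agilent one-colour array per mouse, in 4 groups of 2 mice. AKP::Keap1 females and AKP::Keap1 males lack Keap1 in the liver, and AKP females and AKP males keep it. All 4 groups carry a liver-specific activated oncogene and mutant p53 (R172H), so no group is a wild-type liver. The labels give neither age, strain, the promoter behind the deletion nor the tumour content of each liver. The series concerns bile duct cancer, and the question for these genes is how a main secretory product of hepatocytes differed with Keap1 status and with sex. Keap1 is the protein that marks the transcription factor Nrf2 for degradation.

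Complement is a chain of plasma proteases that begins in the classical, lectin or alternative pathway, meets at C3 and ends in a pore built from the terminal components. Coagulation is a parallel protease chain that ends in fibrin, which plasmin dissolves again. Hepatocytes make most of these proteins and secrete them into the blood. C1q and properdin are exceptions, made mainly by macrophages and other myeloid cells, and complement factor D is made mainly by fat cells.

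Promoter windows are shown for the members on which the results below turn: 5 genes with the largest sex differences, and F5 and Mbl1, which were lower in AKP::Keap1 livers. Each window runs from 250 bases before to 50 bases after the gene's start, 5′ to 3′ on the gene's own strand, from RefSeq on GRCm38.p6. Capitals mark the matches to the 5 motifs searched: a STAT letter pattern in C8a, a C/EBP pattern in C9 and, on the opposite strand, an antioxidant response element core in Mbl1. The windows of C6, C8b, Cfd and F5 hold no match. The windows lie at chr15:4726960-4727259 (plus strand, C6), chr4:104876349-104876648 (minus strand, C8a), chr4:104766067-104766366 (plus strand, C8b), chr15:6445096-6445395 (plus strand, C9), chr10:79890603-79890902 (plus strand, Cfd), chr1:164151585-164151884 (plus strand, F5) and chr14:41151206-41151505 (plus strand, Mbl1).
C6: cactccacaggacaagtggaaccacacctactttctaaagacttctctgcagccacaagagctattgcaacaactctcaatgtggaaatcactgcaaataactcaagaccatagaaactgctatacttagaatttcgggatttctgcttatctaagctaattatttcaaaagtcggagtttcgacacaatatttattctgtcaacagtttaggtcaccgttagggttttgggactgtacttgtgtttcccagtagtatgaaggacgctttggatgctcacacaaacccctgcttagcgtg
C8a: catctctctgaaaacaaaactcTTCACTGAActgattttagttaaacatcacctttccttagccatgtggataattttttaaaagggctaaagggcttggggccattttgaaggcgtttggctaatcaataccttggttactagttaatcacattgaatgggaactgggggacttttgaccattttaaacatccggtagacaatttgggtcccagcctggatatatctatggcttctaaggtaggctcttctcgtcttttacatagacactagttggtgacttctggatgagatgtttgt
C8b: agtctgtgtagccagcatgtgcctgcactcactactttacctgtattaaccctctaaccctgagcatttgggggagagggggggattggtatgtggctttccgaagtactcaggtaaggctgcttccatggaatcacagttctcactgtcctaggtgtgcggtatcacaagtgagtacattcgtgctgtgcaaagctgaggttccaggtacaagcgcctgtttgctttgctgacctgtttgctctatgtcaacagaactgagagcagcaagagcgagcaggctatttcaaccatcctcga
C9: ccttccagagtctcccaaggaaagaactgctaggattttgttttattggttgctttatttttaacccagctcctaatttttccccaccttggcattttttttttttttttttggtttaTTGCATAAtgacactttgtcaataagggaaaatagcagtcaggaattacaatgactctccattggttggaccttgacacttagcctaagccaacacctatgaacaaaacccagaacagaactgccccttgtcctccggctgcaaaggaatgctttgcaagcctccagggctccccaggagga
Cfd: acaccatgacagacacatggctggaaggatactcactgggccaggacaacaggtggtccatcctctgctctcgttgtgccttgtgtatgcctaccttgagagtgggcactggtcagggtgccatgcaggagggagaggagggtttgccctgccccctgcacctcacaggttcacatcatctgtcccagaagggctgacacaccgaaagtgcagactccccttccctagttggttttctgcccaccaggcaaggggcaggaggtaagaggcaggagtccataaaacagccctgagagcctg
F5: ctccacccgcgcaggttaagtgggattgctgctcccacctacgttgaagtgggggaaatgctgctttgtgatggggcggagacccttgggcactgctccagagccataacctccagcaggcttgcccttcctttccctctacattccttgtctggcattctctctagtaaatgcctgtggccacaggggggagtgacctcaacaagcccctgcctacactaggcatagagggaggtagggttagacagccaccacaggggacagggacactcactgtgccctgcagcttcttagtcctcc
Mbl1: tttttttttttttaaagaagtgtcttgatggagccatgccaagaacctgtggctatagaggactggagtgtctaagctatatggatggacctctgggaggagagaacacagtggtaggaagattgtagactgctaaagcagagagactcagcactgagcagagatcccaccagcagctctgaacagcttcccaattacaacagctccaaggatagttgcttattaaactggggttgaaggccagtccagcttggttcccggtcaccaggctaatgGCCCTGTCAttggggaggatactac

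These letters are a description of the windows and do not show that a factor binds there. Of the 40 genes, 31 had a window in the table, with 32 windows in all, and the same search was run on both strands of all 32851 windows of the table. The antioxidant response element core, TGACNNNGC, the pattern that Nrf2 is known to bind, was in 4 of the 32 windows (12.5%), against 12.4% of all windows. Its members were C1qb, Cfp, Klkb1 and Mbl1. The C/EBP pattern TTGCNNAA was in 9 windows (28.1%), against 10.8% of all windows, and the STAT pattern TTCNNNGAA was in 8 (25%), against 8.30%. The HNF4 pattern CAAAGTCCA was in 0 windows, against 0.475% of all and the HNF1 palindrome was in 0, against 0.00913%. No match overlapped another in the 7 windows shown.

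Levels are log2 of the processed signal minus the array's 75th percentile, so that a difference of 1 is a 2-fold difference. Levels of different probes are not comparable with each other. Differences come from limma with standard errors (SE), n = 2 mice per group, and calls use p-values adjusted by Benjamini-Hochberg over all genes tested, with a threshold of 0.05. Each array showed 65.7% to 70.7% of spots well above background and no saturated spot, and replicates correlated at r = 0.9895 to 0.9920 across genes. Keap1 was lower in AKP::Keap1 livers, at -2.85 ± 0.11 (SE) and an adjusted p of 0.000177, and Nqo1, a target of Nrf2, was higher, at 4.17 ± 0.22. Each of the 4 slides holds 1 group, and the 2 sexes were scanned on different days, so slide and group cannot be told apart in any comparison, nor scan day and sex. Nothing in the labels says whether mice of a group came from separate litters, so p-values measure only the spread between these 8 livers.

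In AKP::Keap1 livers, 13 of the 40 genes were lower than in AKP livers over both sexes and 0 were higher, against 17.2% of all 15860 genes tested that were called lower and 22% called higher. The 13 genes are 32.5% of the 40. They were Plg, Masp1, F5, C6, Mbl1, F7, Klkb1, F12, F13b, Vtn, Cfb, F9 and Kng1, with differences between -0.76 and -0.35. Of the 40, 0 were called lower by at least 2-fold, against 2.19% of all genes tested. The median of the 40 genes was -0.33, against -0.00022 for all genes, and 34 of 40 had a negative difference. In 10 of the 13, every one of the 4 AKP::Keap1 arrays lay below every one of the 4 AKP arrays. That count rests on the same values as the calls, and no share over all genes is given for it. At an unadjusted limma p under 0.05, 20 genes were lower and 0 higher. Of all genes, at least the 17.2% called lower and the 22% called higher passed that limit, and the full share is not given.

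**Figure D1:**
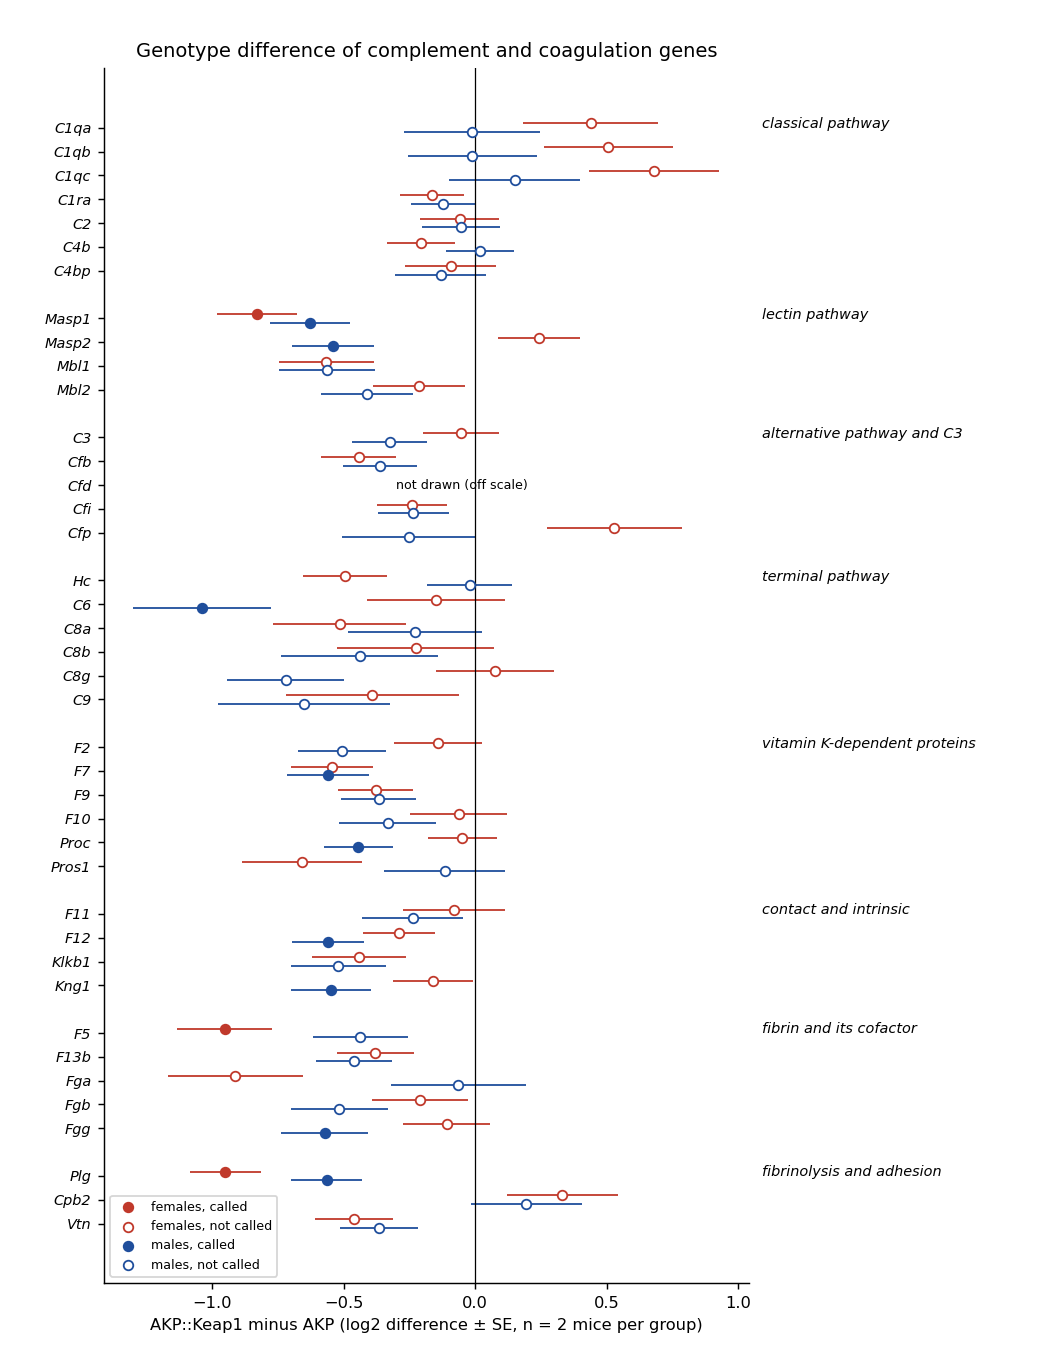
Genotype difference (AKP::Keap1 minus AKP, log2, horizontal axis) of each gene in females (red) and males (blue), with standard errors and filled points for called differences, ordered by role. Most points lie left of 0, only Masp1 and Plg are filled in both sexes, and Cfd, at 4.83 in males, is not drawn.

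Markers of 2 cell types were also lower, where 17.2% of all genes were called lower and 22% higher. Of 12 hepatocyte markers, which include Alb, Apob and Cps1, 7 were lower in AKP::Keap1 livers and 0 higher, with a median difference of -0.65. Their summed level was 1182 to 1566 in AKP::Keap1 females, against 1630 to 1708 in AKP females, and 1234 to 1239 in AKP::Keap1 males, against 1920 to 2131 in AKP males, in units of each array's 75th percentile. Of 12 endothelial markers, 7 were lower and 0 higher, with a median of -0.34, and their summed level was 35.4 to 36.5 in AKP::Keap1 females, against 43.2 to 43.3 in AKP females, and 31.9 in both AKP::Keap1 males, against 41.8 to 43.2 in AKP males. Of 12 bile duct markers, such as Krt19 and Epcam, 10 were higher and 0 lower, with a median of 3.29. Of 11 neutrophil markers 6 were higher and 0 lower, of 12 stellate cell and fibroblast markers 6 were higher and 2 lower, and of 6 platelet markers 1 was higher and 0 lower. In bulk tissue, fewer hepatocytes and less RNA per hepatocyte cannot be told apart, and the part of either in the results below was not tested. Brightness moved with the result as well: 28 of the 40 genes are among the 1585 brightest genes in this comparison, whose median difference was -0.16 and of which 21.2% were called lower.

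Plg, which encodes plasminogen, the precursor of the fibrin-dissolving protease plasmin, showed the smallest adjusted p of the 40. Its level was 5.84 and 5.58 in AKP::Keap1 females, against 6.69 and 6.63 in AKP females. It was 5.51 and 5.59 in AKP::Keap1 males, against 6.06 and 6.18 in AKP males. The 4 AKP::Keap1 livers were thus all below the 4 AKP livers, by -0.76 ± 0.09 (adjusted p = 0.00281), which is 1.69-fold lower. The difference was called in each sex, at -0.95 ± 0.13 in females and -0.57 ± 0.13 in males. Vtn, vitronectin, an adhesion protein that also regulates the terminal complex, was lower by genotype at -0.41 ± 0.11. Cpb2, whose product slows fibrin breakdown, had a difference of 0.26 ± 0.15 and did not pass the test. It was the highest value among the genes of fibrinolysis and adhesion.

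F5, factor V, is the cofactor with which factor X makes thrombin. Its level was 4.41 and 4.03 in AKP::Keap1 females, against 5.06 and 5.29 in AKP females. In males it was 4.49 and 4.59 with Keap1 deleted, against 4.85 and 5.10 in AKP males. The groups did not overlap within either sex, and the difference over both sexes was -0.69 ± 0.13 (adjusted p = 0.00852). In females alone it was -0.95 ± 0.18, or 1.94-fold lower, and in males it was -0.44 ± 0.18 and not called. The other probe for F5 gave -0.97 over both sexes. F13b, the carrier subunit of fibrin-stabilising factor XIII, was lower at -0.42 ± 0.10.

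**Figure D2:**
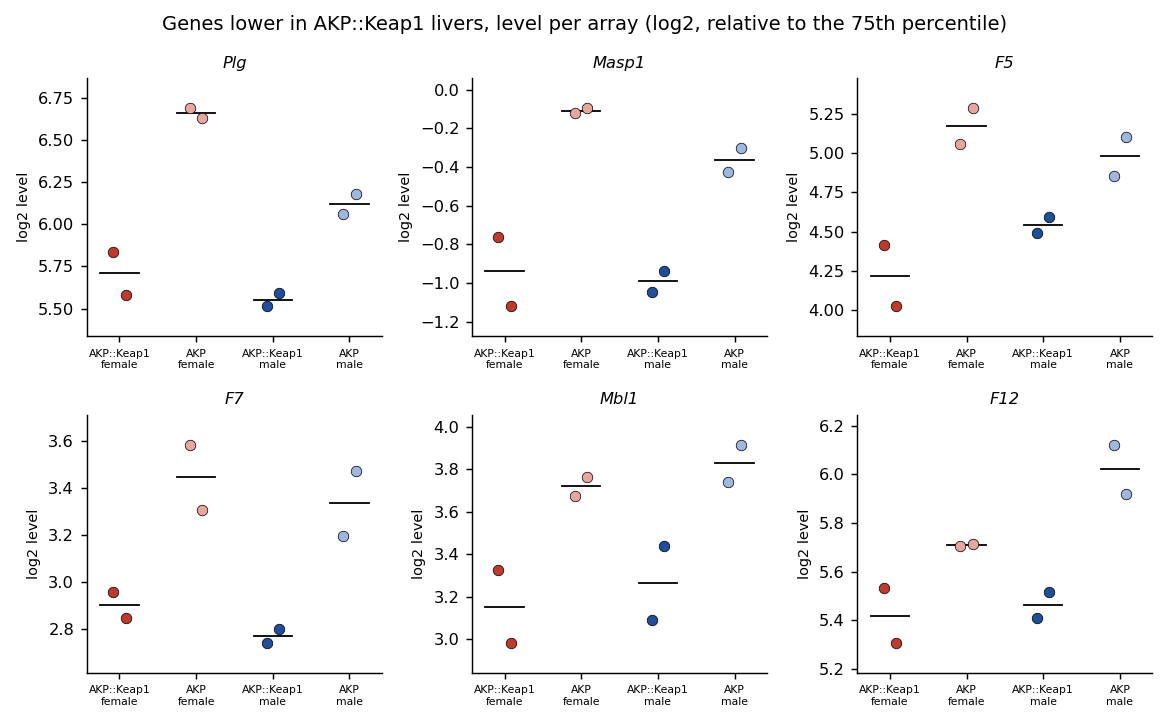
Level of Plg, Masp1, F5, F7, Mbl1 and F12 on each array (log2 relative to the array's 75th percentile), 2 mice per group, with the group mean as a line. Within each sex the AKP::Keap1 points lie below the AKP points in all 6 panels, and the vertical scales differ between panels.

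The 3 fibrinogen chains, Fga, Fgb and Fgg, are neighbours in the genome and encode the precursor of fibrin. None was called over both sexes, at -0.49 ± 0.18, -0.36 ± 0.13 and -0.34 ± 0.12, with adjusted p between 0.062 and 0.076. The chains differed in which sex held the larger value. Fga was 5.18 and 4.40 in AKP::Keap1 females, against 5.58 and 5.82 in AKP females, and 5.37 and 5.47 in AKP::Keap1 males, against 5.43 and 5.54 in AKP males. Fgg was 8.15 and 7.80 in AKP::Keap1 females, against 8.04 and 8.12 in AKP females, and 7.89 and 7.96 in AKP::Keap1 males, against 8.63 and 8.36 in AKP males. Fgg was called in males alone, at -0.57 ± 0.17 (adjusted p = 0.0469). The 2 AKP::Keap1 female arrays straddled the AKP values of Fgg. The sex by genotype term was called for none of the 3.

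Among the 6 vitamin K-dependent proteins, whose glutamates are carboxylated before secretion, F7 and F9 were lower in AKP::Keap1 livers over both sexes and the other 4 were not called. F7, factor VII, which starts coagulation with tissue factor, was 2.96 and 2.85 in AKP::Keap1 females, against 3.58 and 3.31 in AKP females. It was 2.74 and 2.80 in AKP::Keap1 males, against 3.20 and 3.47 in AKP males. That is -0.55 ± 0.11 (adjusted p = 0.011), with close to the same value in females, -0.54, and in males, -0.56. F9, the factor lacking in haemophilia B, differed by -0.37 ± 0.10. F2, prothrombin, differed by -0.32 ± 0.12 and Pros1, protein S, by -0.39 ± 0.16, and neither passed the test. F10, factor X, lies next to F7 in the genome and differed by -0.20 ± 0.13, also not called. Proc, the anticoagulant protein C, was called in males alone, at -0.45 ± 0.13.

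Of the 4 genes of the contact and intrinsic system, 3 were lower over both sexes. F12, factor XII, which starts the contact pathway, was 5.53 and 5.31 in AKP::Keap1 females, against 5.71 and 5.71 in AKP females. It was 5.41 and 5.52 in AKP::Keap1 males, against 6.12 and 5.92 in AKP males, and its difference was -0.42 ± 0.10 (adjusted p = 0.0173). Klkb1, prekallikrein, differed by -0.48 ± 0.13, and Kng1, the kininogen from which bradykinin is cut, by -0.35 ± 0.11. F11, the neighbour of Klkb1 in the genome, differed by -0.16 ± 0.14 and was not called. Kng1 and its paralogue Kng2 are close in sequence, so their signals may be shared.

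In the lectin pathway the protease Masp1 and the recognition protein Mbl1 were lower in AKP::Keap1 livers. Masp1 was -0.76 and -1.12 in AKP::Keap1 females, against -0.12 and -0.10 in AKP females, and -1.04 and -0.94 in AKP::Keap1 males, against -0.43 and -0.30 in AKP males. No AKP::Keap1 liver reached an AKP liver, and the difference was -0.73 ± 0.11 (adjusted p = 0.00439), 1.66-fold lower, called in both sexes. Mbl1, a mannose-binding lectin, differed by -0.56 ± 0.13 (adjusted p = 0.0169). Its paralogue Mbl2 differed by -0.31 ± 0.12, which was not called.

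Masp2, the lectin-pathway protease that cleaves C4 and C2, was 3.68 and 3.45 in AKP::Keap1 females, against 3.40 and 3.24 in AKP females. It was 3.56 and 3.70 in AKP::Keap1 males, against 4.30 and 4.04 in AKP males. In females both AKP::Keap1 arrays lay above both AKP arrays, and in males both lay below. The male difference, -0.54 ± 0.16, had an adjusted p of 0.047, whereas the female difference of 0.24 ± 0.16 was not called. The difference between the sexes, 0.78 ± 0.22, had an adjusted p of 0.11. Both probes assigned to the same RefSeq transcript of Masp2 gave positive female differences, 0.24 and 0.06. The other probe, assigned to a different transcript of the gene, gave -0.62.

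The classical pathway held 0 of 7 genes called by genotype, in either sex or over both. Of all genes, 17.2% were called lower and 22% higher over both sexes. C1qa, C1qb and C1qc, adjacent genes for the chains of the recognition protein C1q, had differences of 0.21 ± 0.18, 0.25 ± 0.17 and 0.42 ± 0.18. C1ra, the protease of the C1 complex, differed by -0.14 ± 0.09, C2 by -0.06 ± 0.11, C4b by -0.09 ± 0.09 and the inhibitor C4bp by -0.11 ± 0.12. The other probe for C1ra gave -0.52. Beside the C1q genes, 12 of 16 macrophage and monocyte markers were higher in AKP::Keap1 livers and 0 lower, with a median of 0.71, whereas 0 of 11 Kupffer cell markers were higher and 3 lower, with a median of -0.07. The summed macrophage and monocyte level was 113.5 to 145.4 in AKP::Keap1 females, against 84.3 to 94.6 in AKP females, and 84.0 to 114.3 in AKP::Keap1 males, against 58.3 to 79.6 in AKP males. C4b can share signal with its near-identical copy C4a, and C1ra with C1rb.

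C3, the protein at which the pathways meet, differed by -0.19 ± 0.10 and was not called. Cfb, the protease of the alternative convertase, was lower at -0.40 ± 0.10 (adjusted p = 0.0229). Cfi, which inactivates C3b and C4b, differed by -0.24 ± 0.09 and Cfp, properdin, which stabilises the convertase, by 0.14 ± 0.18, and neither was called.

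Cfd, factor D or adipsin, the protease that cleaves factor B, was the one gene of the 40 that was higher with Keap1 deletion, and in males alone. Its processed signal was 882 and 1980 in AKP::Keap1 males, against 45.7 and 23.5 in AKP males. It was 1.97 and 2.80 in AKP::Keap1 females, against 19.9 and 2.07 in AKP females. In females the probe cleared the background threshold on 0 of 2 arrays with Keap1 deleted and on 1 of 2 AKP arrays, so no fold is given there. In males all 4 arrays measured it, the groups did not overlap, and the difference was 4.83 ± 1.03 (adjusted p = 0.0217), or 28.4-fold. Without any 1 of the 4 male arrays it was 4.21 to 5.44 and was not called. The adipocyte markers Adipoq, Lep and Plin1 were well above background on 0 of 8 arrays. The summed adipocyte marker level, Cfd included, was 4.43 to 4.89 in AKP::Keap1 males, against 5.29 to 5.38 in AKP males. By gene, the male difference was positive in 3 of the 4 adipocyte genes kept, Cfd among them, and negative in 1, with a median of 0.31. Cfd itself enters the sum, the count and the median, so these partly repeat its own difference. The part of fat cells in the male Cfd difference was not tested. The interaction was not called (adjusted p = 0.083), and its size is not given because 3 of the 4 female arrays did not measure the probe.

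**Figure D3:**
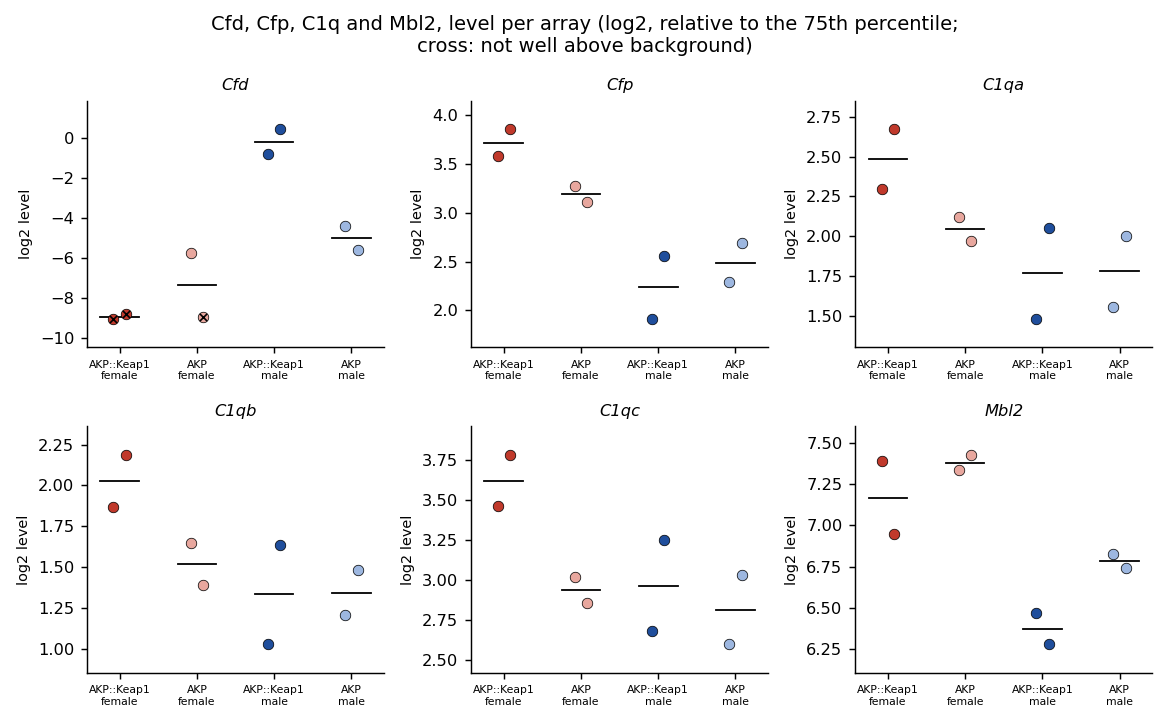
Level of Cfd, Cfp, C1qa, C1qb, C1qc and Mbl2 on each array (log2 relative to the array's 75th percentile), 2 mice per group, with the group mean as a line and a cross on signals not well above background. The Cfd points of AKP::Keap1 males stand above all others, and the 4 female points of Cfp and of Mbl2 stand above the 4 male points.

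Within females alone, 3 of the 40 genes were lower and 0 higher with Keap1 deletion (7.5% lower), against 9.07% of all genes called lower and 12.3% higher. These were Plg, F5 and Masp1. Within males, 9 were lower (22.5%) and 1 higher, against 11.5% and 16.9% of all genes. The 9 were C6, Masp1, Fgg, Plg, F7, F12, Kng1, Masp2 and Proc, and the gene that was higher was Cfd. The median of the 40 genes was -0.21 in females and -0.37 in males, against 0.05 and -0.03 for all genes. Among the brightest genes the median was 0.02 in females and -0.35 in males, so the male value of the 40 lies close to that of other bright genes. Leaving out any 1 of the 4 male arrays left 0 of the 40 called in males. In that fit a group of 1 mouse is assumed to vary like the other groups. Under quantile normalization the male counts were 1 lower and 1 higher, with a median of -0.02. In females, Plg was called in all 8 fits that left out an array, F5 was lost without AKP female 2 or AKP::Keap1 female 2, and Masp1 was lost without either of those arrays or AKP female 1. Leaving out AKP::Keap1 female 1 gave a female median of -0.39, whereas it was -0.04 when AKP::Keap1 female 2 was left out.

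Whether the genotype difference itself differed between the sexes was tested by the interaction, the female minus the male difference. Of the 40 genes 0 were called, against 1.93% of all genes, and at an unadjusted limma p under 0.05 there were 3, 2 of them positive and 1 negative. The share of all genes at that unadjusted limit is not given. A shift to the array median called 1 gene higher (Masp2), and normexp background correction called 1 lower (Cfd). The sets called in females and in males are therefore not shown to differ.

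The sex differences of 4 terminal pathway genes were larger than any genotype difference among the 40 genes other than that of Cfd. C6, C8a, C8b and C9, which build the membrane pore with C5, were lower in females than in males in both genotypes, and all 4 exceeded 4-fold. C6 was -0.75 and -0.32 in AKP::Keap1 females and -0.59 and -0.17 in AKP females, against 1.98 and 2.30 in AKP::Keap1 males and 3.43 and 2.93 in AKP males. That is -3.12 ± 0.18 (adjusted p = 0.000954), or 8.69-fold lower. C8b was 2.97 and 2.17 in AKP::Keap1 females and 2.80 and 2.80 in AKP females, against 4.74 and 5.11 in AKP::Keap1 males and 5.59 and 5.13 in AKP males. Its difference was -2.46 ± 0.21 (adjusted p = 0.00256), 5.49-fold lower.

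C8a, which lies next to C8b in the genome, was 3.51 and 2.75 in AKP::Keap1 females and 3.64 and 3.65 in AKP females, against 5.17 and 5.48 in AKP::Keap1 males and 5.58 and 5.53 in AKP males. The difference was -2.05 ± 0.18 (adjusted p = 0.00273), 4.15-fold lower, and its other probe gave -1.74. C9, the pore-forming subunit, was -0.27 and -1.23 in AKP::Keap1 females and -0.18 and -0.54 in AKP females, against 1.03 and 1.34 in AKP::Keap1 males and 1.94 and 1.73 in AKP males. It differed by -2.06 ± 0.23 (adjusted p = 0.00584), 4.17-fold lower. For none of these 4 genes did a female array reach a male array. The terminal pathway as a whole did not divide in this way. C8g, the gamma chain that joins C8a and C8b in the C8 complex, differed by -0.03 ± 0.16, and Hc, which encodes C5, by -0.36 ± 0.11, and neither was called. The other, dimmer probe for C8g gave -0.40.

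**Figure D4:**
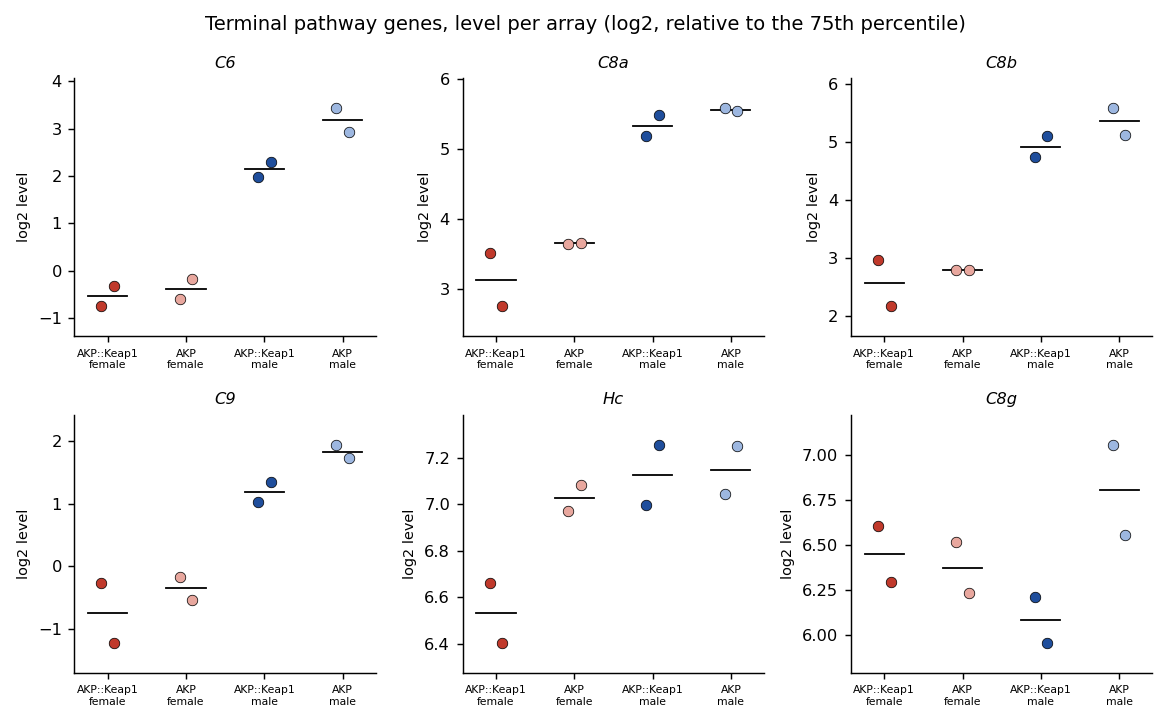
Level of the 6 terminal pathway genes on each array (log2 relative to the array's 75th percentile), 2 mice per group, with the group mean as a line. In C6, C8a, C8b and C9 the 4 female points lie below the 4 male points, and in Hc and C8g the sexes overlap.

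By genotype, the same 6 terminal genes differed by -0.59 to -0.26 over both sexes. C6 alone was called there, at -0.59 ± 0.18 (adjusted p = 0.0458), and its call came with a male difference of -1.04 ± 0.26, 2.05-fold lower, and a female difference of -0.15 ± 0.26.

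Across all 40 genes, 8 were lower in females than in males (20%) and 4 higher (10%), against 10.4% and 10.9% of all genes. The other lower genes were Cfd (adjusted p = 0.00842), C1ra at -0.57 ± 0.09, Masp2 at -0.46 ± 0.11 and C2 at -0.40 ± 0.11. Further probes gave smaller sex differences, -0.19 for C1ra, and -0.25 and -0.34 for Masp2. The higher genes were Cfp at 1.09 ± 0.18, Mbl2 at 0.70 ± 0.12, F9 at 0.39 ± 0.10 and Plg at 0.35 ± 0.09. Of the 40 genes, 6 were called and reached 2-fold, against 5.47% of all genes tested. Cfd is among the 6 and was well above background on 1 of 4 female arrays and 4 of 4 male arrays. With Keap1 deleted it was 92.8-fold lower in females when their dim arrays were raised to the lowest signal well above background. That size is not a strict limit and was not tested. Among AKP livers 1 of 2 female arrays measured Cfd, so no fold is given there. Of the 4 adipocyte genes kept, Cfd among them, 3 were lower in females, the others being Cidec at -1.27 ± 0.28 and Retn at -0.93 ± 0.12, and their part in the Cfd difference was not tested. Cfp was 3.58 and 3.85 in AKP::Keap1 females and 3.27 and 3.11 in AKP females, against 1.91 and 2.56 in AKP::Keap1 males and 2.29 and 2.69 in AKP males. Every female array exceeded every male array. Of the macrophage and monocyte markers 5 of 16 were higher in females and 0 lower, and of the Kupffer cell markers 3 of 11 were higher and 0 lower, and their part in the Cfp difference was not tested. Of the hepatocyte markers 1 of 12 was higher in females and 0 lower, with a median of 0.08. With slide as a random block, C6, C8a, C8b and C9 were called lower and no other gene of the 40 was called. These 4, Cfd and C1ra were called in all 8 fits that left out 1 array, whereas Cfp was called in 7 (not without AKP female 1), Mbl2 in 5, Masp2 in 2, F9 in 1 and C2 and Plg in 0.

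Other genes of the pathways were taken from lists fixed by name, also with earlier results of these data known. Of 26 other complement genes tested, 10 were lower and 2 higher in AKP::Keap1 livers, with a median of -0.30. The shares over all genes were 17.2% called lower and 22% called higher. The lowest adjusted p were those of C1rb (-1.01 ± 0.10), C1s1 (-0.72 ± 0.09) and C1s2 (-0.62 ± 0.08), all proteases of the C1 complex or their copies. Itgam (0.73 ± 0.18), a chain of a complement receptor on myeloid cells, and Cd46, a membrane regulator, were higher. Cd46 was measured above background in 4 of 4 AKP::Keap1 livers and 1 of 4 AKP livers, so its size is given only for males. The male difference was called on the signals as measured (limma adjusted p = 0.0168). With dim arrays raised to a floor, Cd46 was 1.52-fold higher in AKP::Keap1 males, a size that was not itself tested. Of 29 other coagulation genes, 5 were lower and 4 higher, with a median of -0.08. The part called lower was close to the share over all genes, and the part called higher was below it. Lower were, among others, Hgfac (-0.83 ± 0.08), the activator of hepatocyte growth factor, Proz (-0.75 ± 0.08), a vitamin K-dependent plasma protein, and Ggcx (-0.80 ± 0.12), the carboxylase that modifies the vitamin K-dependent factors. Among those that were higher, Plaur, the urokinase receptor, differed by 2.23 ± 0.31 and was measured on all 8 arrays. Plat, tissue plasminogen activator, was not well above background on either AKP male array. Its male difference was called on the signals as measured (limma adjusted p = 0.00719). With the AKP male arrays raised to the floor, Plat was 8.51-fold higher in AKP::Keap1 males, a size also not tested. In females, where all 4 arrays measured it, Plat differed by 1.39 and was not called. F2rl1, a protease-activated receptor, was measured above background in 3 of 4 AKP::Keap1 livers and 0 of 4 AKP livers. Its male difference was called on the signals as measured, those of AKP males being dim (limma adjusted p = 0.0143). With dim arrays raised to the floor, F2rl1 was 1.51-fold higher in AKP::Keap1 males, a size that was not tested. The floor of an array is the lowest signal well above background of any probe on it. A dim probe can exceed that floor, so these folds are not strict limits.

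Acute phase genes did not share one direction. Of 16, 2 were lower by genotype, Crp at -0.55 ± 0.10 and Cp at -0.41 ± 0.12, and 1 was higher, Lcn2 at 2.15 ± 0.51, with a median of -0.01. The shares over all genes were larger, 17.2% called lower and 22% called higher. Of 17 liver transcription factor genes, 7 were lower, with a median of -0.48 over the list. Nr5a2 (-0.74 ± 0.10), Foxa3 (-1.54 ± 0.28) and Cebpa (-0.85 ± 0.16) had the lowest adjusted p of those that were lower. Between the sexes, Cebpb (-0.81 ± 0.21) and Foxa1 (-1.03 ± 0.28) were lower in females and Nr5a2 (0.38 ± 0.10) was higher.

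How many of the 40 genes were called by genotype depended on the scaling between arrays. Quantile normalization called 7 lower and 0 higher, with a median of -0.09 against -0.01 for all genes. A shift to the array median called 33 lower, where the median of all genes was -0.25, and unscaled signals called 2 lower and 2 higher, where it was 0.31. The median of the 40 genes minus the median of all genes was -0.33 under all 3 scalings by a single shift. A single shift per array moves all genes alike, so these 3 had to agree. The value was -0.08 under quantile normalization and -0.14 with normexp background. Plg and Masp1 were called under all 5 of these scalings. Leaving out 1 array at a time gave 5 to 19 genes lower, with 19 without AKP::Keap1 female 1 and 5 without AKP female 2. Plg, Masp1, F5 and F7 were called in all 8 of these fits and Mbl1 and F12 in 5. F13b was called in 4 of them, C6, Cfb, Klkb1 and Vtn in 2 each, and F9 and Kng1 in 1 each. With slide as a random block 5 were called lower, namely Plg, Masp1, F5, F7 and Mbl1.

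**Figure D5:**
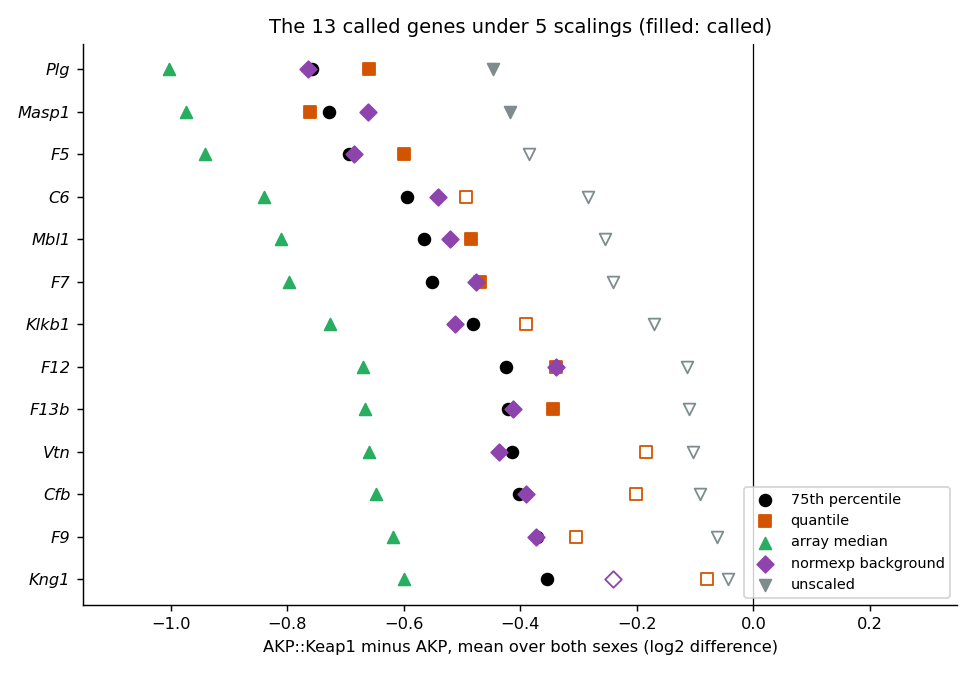
Genotype difference over both sexes (log2, horizontal axis) of the 13 called genes under 5 scalings, 1 symbol each, filled where called. All symbols lie left of 0, unscaled signals lie nearest to 0 for each gene, and Plg and Masp1 are filled under every scaling drawn.

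Further probes allow a check on 10 members, in 11 pairs. The genotype difference over both sexes had the same sign in 11 of 11 pairs, and the dimmer probe gave the lower value in 10 of 11, with medians of -0.55 for the dimmer and -0.32 for the brighter probes. For F10 the dimmer probe gave -0.62 and the brighter -0.20, and for C1ra they gave -0.52 and -0.14. In the sex comparison 7 of 11 pairs shared a sign. Fga was 0.56 on the dimmer probe and -0.21 on the brighter, so its sex difference has no settled sign. The probes of C3, F10 and Kng1 also gave sex differences of opposite sign. The counts above rest on the brighter probe of each gene, while the mean over all probes of a gene called 15 of the 40 genes lower by genotype.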

How the data were processed

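The deposited scanner files give a linear intensity for each spot. Per the file headers they were made by Agilent Feature Extraction 10.7.3.1 from array design 026655 (annotation mm9), while version 10.1 is named in the submitters' processing notes. Per the labels' protocols, 500 ng of total RNA was labelled with Cy3. The processed signal, already background-subtracted, was used. The authors' deposited matrix holds the same intensity values (355176 of 355176 equal), without scaling between arrays. Control spots (1377 of 44397) and outlier spots were left out and spots of a probe averaged, giving 39429 probes. Through RefSeq accessions (GRCm38.p6 table, versions dropped) 26055 probes received 1 of 19751 symbols, 0 several and 13374 none.

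From the deposited intensities, log2 values minus each array's 75th percentile were computed. Probes above background on 2 or more of 8 arrays were kept, and the brightest stood for its gene, leaving 15867 genes. The test was limma's (version 3.58.1, R 4.3.3), with 1 mean per group and a Benjamini-Hochberg threshold of 0.05, two-sided. Simulated data with 200 changed genes, in 5 draws, served to test the fit. Contrasts were genotype over both sexes and within each sex, their difference between the sexes, and sex over both genotypes. The precision is limited by the number of arrays. Marker sums add the linear scaled levels.

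The 40 genes, the marker and pathway lists and the contrasts were chosen with earlier results of these data known, so no list is independent support. Array-by-array values are given for genes called at 2-fold, as the rule of naming asks, and for Masp2, whose probes disagreed. They are also given for Plg, Masp1, F5, F7, F12, Fga and Fgg, which were chosen after their values were seen. They are not given for C3, F10 and Kng1, whose probes disagreed in the sign of the sex difference. Other lists are given by counts with up to 3 genes per direction by adjusted p. One gene of the liver transcription factor list is not reported here. Alternatives were quantile normalization, an array median shift, unscaled matrix values, no filter or all 8 arrays, the mean over probes, trended robust variances, slide and replicate blocks, fits to each sex and leaving out each array. Normexp (offset 50, on median signals), a comparison of further probes and a block with replicate numbers crossed were chosen after seeing the data. Gene names of the scanner files and normexp on mean signals were planned but could not be run on the columns given. Replicate numbers were checked as pairs: deviations of same-numbered arrays correlated at -0.16 to 0.12 between groups, so the numbers were not used as pairs.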

Additional observations from a re-analysis of the deposited data

Results flagged for a closer look

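Masp2, a lectin-pathway protease, had genotype differences of opposite sign in the sexes. Both AKP::Keap1 females lay above both AKP females, with a difference of 0.24 on the log2 scale (SE 0.16), and both AKP::Keap1 males lay below both AKP males, with a difference of -0.54 (SE 0.16). The difference between the sexes was 0.78 ± 0.22, with a limma adjusted p of 0.11, so it was not called. The probe behind these values is the brightest of 3. A second probe for the same RefSeq transcript gave a female difference of 0.06, and a probe assigned to a different transcript gave -0.62. The cause was not tested.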

How the results depend on the processing

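Counts of the 40 genes moved with the processing, and the cause was not tested except where fewer samples enter. For genotype over both sexes, genes called lower numbered 7 under quantile normalization, 33 with an array median shift, 2 unscaled and 5 with slide as a random block, and genes called higher numbered 2 unscaled and 2 with normexp, against 13 and 0. For females, lower calls numbered 7 under quantile normalization, 11 with the median shift, 7 with normexp, 5 with the filter on all 8 arrays, 6 with trended robust variances and 1 in a fit to females alone, against 3, and 1 higher call appeared with replicate numbers crossed. For males, lower calls numbered 1 under quantile normalization, 28 with the median shift, 0 unscaled, 4 without a filter, 14 with trended robust variances, 5 with the replicate block and 4 in a fit to males alone, against 9, and higher calls numbered 3 unscaled and 0 with the filter on all 8 arrays, which removes Cfd. The interaction gained 1 higher call with the median shift and 1 lower with normexp, against 0. For sex, higher calls numbered 2 with the median shift, 2 unscaled, 2 without a filter, 2 with the replicate block and 0 with slide as a random block, against 4, and lower calls numbered 16 unscaled and 4 with that block, against 8. Proc in males, at -0.45, turned to 0.061 in unscaled values (Proc: genotype difference, males).

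Leaving out each array in turn gave 5 to 19 lower and 0 to 1 higher for genotype, 1 to 5 lower and 0 higher in females, 0 to 9 lower and 0 to 1 higher in males, 0 in either direction for the interaction, and 6 to 8 lower and 0 to 3 higher for sex. The replicate numbers did not pair the samples. With the replicate block, 12 genes were lower by genotype, 3 in females and 5 in males, 0 were called for the interaction, and 2 were higher and 7 lower by sex. With the numbers of AKP females crossed, 3 were lower and 1 higher in females. Signal over background limits Cfd, above background on 5 of 8 arrays, and the median sex difference of the 40 genes changed sign under quantile normalization, to 0.05 from -0.11. With 2 mice per group and 1 group per slide, no setting separates group from slide.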
